A study of Homo sapiens with 6 samples.

Results

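The pentose phosphate pathway and the cytosolic enzymes that make NADPH were examined in A549 and H23, established human cell lines kept as models of lung adenocarcinoma. The group is a list of gene names, drawn up with earlier results of these data known, and holds 9 genes of 27968 in the files: PGD and PGLS of the oxidative branch, RPIA, RPE, TALDO1, TKT and TKTL1 of the non-oxidative branch, and the NADP-dependent enzymes ME1 and IDH1. All 9 were present in the gene tables, and 8 passed the filter on low counts. TKTL1 did not. Each line was sampled as 3 independent, untreated cultures, grown with 10% fetal bovine serum in an RPMI medium (H23) or in DMEM (A549), and total RNA was sequenced after removal of ribosomal RNA. No genotype or clone is given in the labels. Line and medium changed together and cannot be told apart.

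The pentose phosphate pathway branches from glycolysis at glucose phosphate. Its oxidative branch yields NADPH, the reductant of glutathione, thioredoxin and lipid synthesis, and ends in ribulose phosphate, while its reversible non-oxidative branch exchanges pentose phosphates for glycolytic sugars and supplies ribose phosphate for nucleotides. ME1 and IDH1 make cytosolic NADPH from malate and isocitrate. PGD, TALDO1, TKT, ME1 and IDH1 have each been described as targets of NRF2, the transcription factor that binds antioxidant response elements.

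The libraries held 29395795 to 42421642 estimated read counts in H23 and 23399562 to 25348083 in A549. At these depths 3 counts were worth 0.0706 to 0.129 TMM-normalised CPM, called CPM below. These are counts scaled to the library's total over the tested genes times its TMM normalisation factor. H23 replicate 1 stood apart from its 2 companions, with a median rank correlation across genes of 0.977 to them. The other H23 libraries had 0.987 each, a median that includes their correlation with replicate 1, and the A549 libraries 0.998. The chi-square of counts per gene was 97.4 and 123 between H23 replicate 1 and replicates 2 and 3. It was 5.24 between H23 replicates 2 and 3, and 3.65 to 3.81 between A549 libraries. Genes not annotated as protein-coding took 39.0 to 41.9% of TPM in A549 and 3.45 to 4.76% in H23. TPM is RSEM's level of a transcript, scaled for its length and for the library. Genes under 400 bases took 39.8 to 42.7% of TPM in A549 and 3.32 to 4.22% in H23. TPM is therefore used below to compare genes within a library and CPM to compare the lines. The keratin genes KRT8 and KRT18 were abundant in both lines, at 1493 ± 30.7 and 2144 ± 115 CPM in H23 and 2186 ± 62.2 and 2250 ± 90.2 CPM in A549 (SD, n = 3). The other 4 epithelial markers were uneven: KRT7 and KRT19 were higher in A549 (1.18 and 4.68 CPM in H23, 3562 and 61.8 in A549), and CDH1 and EPCAM were higher in H23 (38.7 and 6.81 CPM, against 14.4 and 3.61). The lung factor NKX2-1 was at 2.95 CPM in H23 and 0 counts in A549, and the surfactant gene SFTPC 0 in H23 and at most 2 in an A549 library. The surfactant gene SFTPB had at most 2 counts in an H23 library and 3 to 6 in an A549 library. NAPSA, a further lung marker, was at 1.07 CPM in H23 and 0.84 in A549 and did not pass (edgeR adjusted p = 0.308). Blood and endothelial markers summed to at most 0.01 and 0.29 TPM in any library.

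The upstream sequences of 6 members are shown first. Of these, 4 carry the core of the antioxidant response element, and TKT and RPIA, which differed strongly between the lines, do not. TALDO1, PGLS and TKTL1, not shown here, lack the core too, and TALDO1 was also higher in A549. The sequences are the 250 bases before the annotated start, 5′ to 3′ on the gene's strand, from RefSeq on GRCh38.p14. All 9 members matched that table by symbol. Capitals mark TGACNNNGC, the element's core, and GGGCGG, the GC box bound by SP-family factors, on either strand.
PGD, chr1:10398814-10399063, strand plus: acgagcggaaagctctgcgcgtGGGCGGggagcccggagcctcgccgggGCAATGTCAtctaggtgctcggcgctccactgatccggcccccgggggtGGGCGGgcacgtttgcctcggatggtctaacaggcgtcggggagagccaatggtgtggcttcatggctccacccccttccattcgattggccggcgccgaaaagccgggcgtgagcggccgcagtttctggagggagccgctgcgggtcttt
ME1, chr6:83431052-83431301, strand minus: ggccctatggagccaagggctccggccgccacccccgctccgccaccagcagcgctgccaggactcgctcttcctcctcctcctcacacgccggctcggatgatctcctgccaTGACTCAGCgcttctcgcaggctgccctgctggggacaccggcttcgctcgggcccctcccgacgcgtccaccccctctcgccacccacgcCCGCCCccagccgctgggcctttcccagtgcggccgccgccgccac
IDH1, chr2:208255072-208255321, strand minus: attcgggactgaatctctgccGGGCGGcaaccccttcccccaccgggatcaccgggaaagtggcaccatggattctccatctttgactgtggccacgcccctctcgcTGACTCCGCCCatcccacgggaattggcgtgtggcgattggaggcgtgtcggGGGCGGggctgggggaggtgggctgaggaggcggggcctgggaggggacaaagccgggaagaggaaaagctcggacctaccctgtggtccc
RPE, chr2:210002388-210002637, strand plus: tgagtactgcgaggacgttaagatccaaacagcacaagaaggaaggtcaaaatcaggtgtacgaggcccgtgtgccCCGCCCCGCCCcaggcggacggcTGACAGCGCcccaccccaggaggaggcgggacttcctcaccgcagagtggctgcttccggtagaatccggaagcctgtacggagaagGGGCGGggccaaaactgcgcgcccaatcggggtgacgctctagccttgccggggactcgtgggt
TKT, chr3:53256023-53256272, strand minus: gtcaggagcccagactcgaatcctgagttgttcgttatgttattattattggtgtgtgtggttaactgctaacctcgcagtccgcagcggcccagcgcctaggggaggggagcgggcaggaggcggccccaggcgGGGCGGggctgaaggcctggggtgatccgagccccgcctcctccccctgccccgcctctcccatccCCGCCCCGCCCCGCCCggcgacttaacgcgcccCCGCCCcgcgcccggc
RPIA, chr2:88691423-88691672, strand plus: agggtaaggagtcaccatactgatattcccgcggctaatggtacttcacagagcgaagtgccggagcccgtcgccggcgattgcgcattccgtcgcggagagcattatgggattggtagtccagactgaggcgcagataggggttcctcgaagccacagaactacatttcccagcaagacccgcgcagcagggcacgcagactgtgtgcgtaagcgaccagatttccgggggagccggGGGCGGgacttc

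The core lies 201 bases before the start in PGD (GCAATGTCA, on the opposite strand), 151 in RPE (TGACAGCGC), 137 in ME1 (TGACTCAGC) and 143 in IDH1 (TGACTCCGC). The last belongs to the second of 2 IDH1 starts in the table and overlaps a GC box. In all, 4 of 9 members held the core and 7 of 9 a GC box in such a window, where 10.9% and 42.6% of 35116 promoters did, and members with 2 starts had 2 chances. TATAAA, the TATA box, was in 0 of 9 and in 10.7% of all promoters. GC content in these windows was 78.4% in TALDO1, 74.0% in ME1, 70.4% in TKT and 68.4% in PGD, against a median of 58.0% over all promoters. It was 60.0 to 66.4% in RPIA, PGLS, RPE and the second IDH1 start, and 50.8 to 57.2% at the first IDH1 start and the TKTL1 starts. The motif shares were not matched for GC content. A match describes these letters only, and occupancy was not measured.

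The oxidative branch differed between the lines at PGD and not detectably at PGLS. PGD, phosphogluconate dehydrogenase, makes NADPH and ribulose phosphate. Its level was 104, 125 and 128 CPM in H23 replicates 1, 2 and 3, and 1243, 1156 and 1203 CPM in A549. The lowest A549 library stood far above the highest H23 library, and the fitted difference was 10.1-fold (95% interval 8.45 to 12.02, log2 3.33 ± 0.11 SE, edgeR quasi-likelihood adjusted p = 6.93e-07). PGLS, the lactonase one step before PGD, stood at 28.2, 31.8 and 30.1 CPM in H23 and at 27.8, 26.6 and 29.1 CPM in A549. The lines overlapped, and the log2 fold of -0.11 ± 0.09 did not pass (edgeR adjusted p = 0.30). Its interval runs from 0.797 to 1.08 of the H23 level. PGLS is the member most open to the processing. It passed as lower in A549 without H23 replicate 1 (log2 -0.16, edgeR adjusted p = 0.0259) and as higher in A549 once a trend with GC content and length was removed (log2 0.73, edgeR adjusted p = 1.66e-05).

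RPIA was the only member clearly lower in A549. This isomerase turns ribulose phosphate, the product of PGD, into ribose phosphate. Its level was 88.9, 90.0 and 90.4 CPM in the H23 libraries and 15.1, 14.4 and 15.4 CPM in the A549 libraries. Each line was tight and the lines lay apart, 5.997-fold higher in H23 (log2 -2.58 ± 0.08, edgeR adjusted p = 5.93e-07). RPE, the epimerase that turns the same substrate into xylulose phosphate, went the other way. It was at 93.0, 58.7 and 71.1 CPM in H23 and at 125, 121 and 118 CPM in A549. H23 replicate 1 was the highest of its line and still below every A549 library. The RPE log2 fold was 0.70 ± 0.17 (edgeR adjusted p = 0.00634), but it turned to -0.25 with the GC content and length trend removed (edgeR adjusted p = 0.0263), so its direction depends on that step.

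TKT and TALDO1, the enzymes that pass carbon between pentose phosphates and glycolytic sugars, were both higher in A549. TKT, transketolase, was at 386, 474 and 446 CPM in H23 and 1974, 1974 and 1912 CPM in A549. That is 4.49-fold (log2 2.17 ± 0.10, edgeR adjusted p = 2.51e-06), with no overlap of the lines. TALDO1, transaldolase, was at 126, 137 and 131 CPM in H23 and 306, 301 and 309 CPM in A549. The A549 libraries were again all above the H23 libraries, and the difference of 2.33-fold (log2 1.22 ± 0.07, edgeR adjusted p = 7.63e-06) was smaller than that of TKT. TKTL1, a transketolase-like gene, was practically undetected, with 1 count in H23 replicate 2 and 0 in the other libraries. Both lines are under the 3-count floor, so no fold is given. Its relative TKTL2 had 0 counts in all 6 libraries.

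ME1 and IDH1, the members that make cytosolic NADPH outside the pathway, were higher in A549. ME1, the cytosolic malic enzyme, was at 12.4, 10.5 and 11.5 CPM in H23 and at 137, 133 and 124 CPM in A549. The difference was 11.5-fold (95% interval 9.70 to 13.6, log2 3.52 ± 0.10, edgeR adjusted p = 4.70e-07), and the A549 libraries were all far above those of H23. IDH1, the cytosolic and peroxisomal isocitrate dehydrogenase, was at 79.7, 82.9 and 87.2 CPM in H23 and at 253, 249 and 234 CPM in A549. Without overlap of the lines, this came to 2.94-fold (log2 1.56 ± 0.08, edgeR adjusted p = 4.00e-06).

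**Figure D1:**
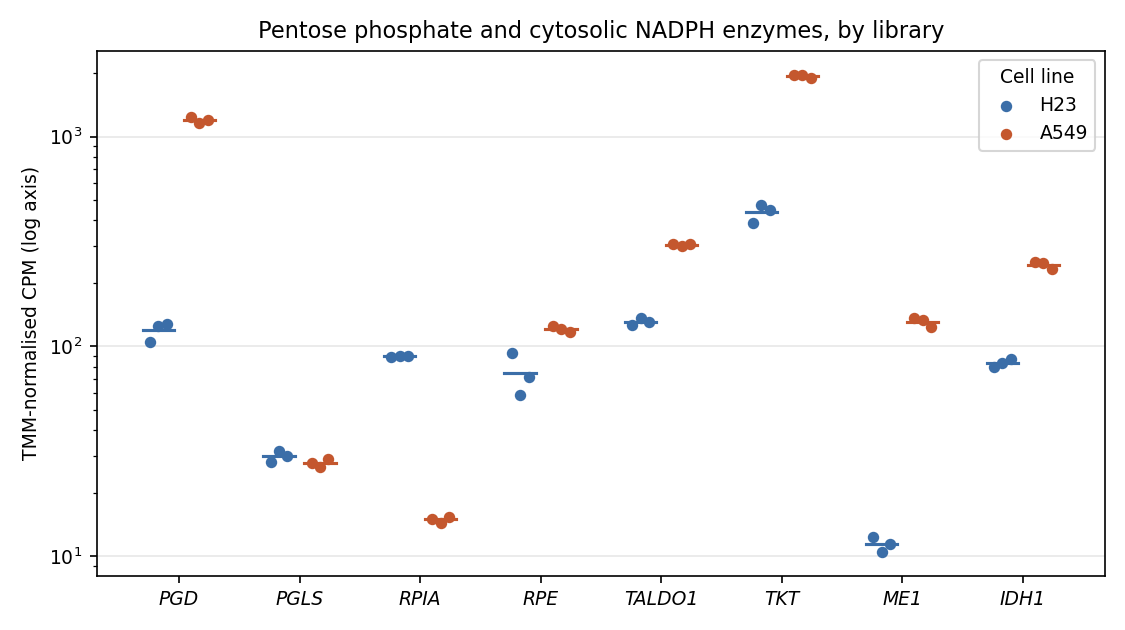
TMM-normalised CPM of the 8 tested members (log axis) in each of the 3 libraries of H23 and of A549; points are libraries and short lines are means. PGD and ME1 are more than 8-fold apart, RPIA alone is clearly lower in A549, and the PGLS points of the lines overlap.

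Of the 8 tested members, 7 fell under an adjusted p of 0.05 in the edgeR test, with 6 of them above H23 in A549 and RPIA below it. Most genes differed between these lines: 77.2% of 15426 tested genes passed, 37.6% as higher in A549 and 39.6% as higher in H23. The count of members that passed is therefore close to the background. Non-overlapping values, in 7 of 8 members, compare with 82.1% of tested genes. A difference of at least 2-fold, in 6 members, compares with 50.1%. The median log2 fold was 1.39 over the tested members and -0.03 over all tested genes. PGD and ME1 had a larger absolute log2 fold than 86.6% and 87.6% of tested genes, RPIA than 81.4%, TKT than 76.7% and PGLS than 6.28%. Together the 9 genes took 0.0932 to 0.103% of the counts in H23 libraries and 0.391 to 0.402% in A549 libraries.

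**Figure D2:**
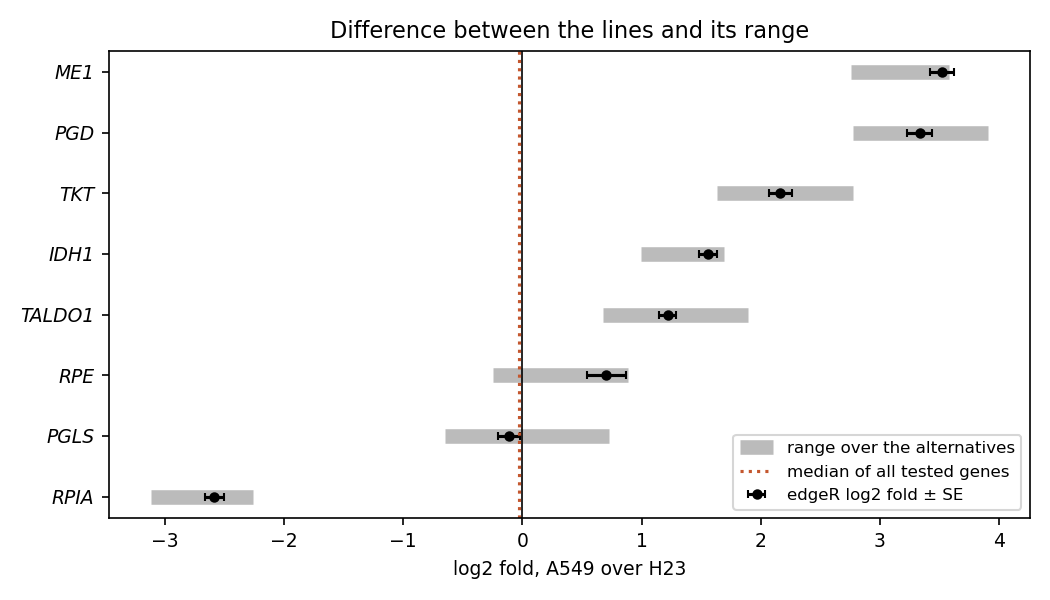
Log2 fold of each tested member, A549 over H23, from edgeR (points, ± SE), with its range over 19 alternative analyses (grey bars) and the median of all tested genes (dotted line). The bars of PGD, ME1, TKT, IDH1 and TALDO1 stay above 0 and that of RPIA below 0, while those of RPE and PGLS cross 0.

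The calls over all genes split into 5801 higher and 6109 lower in A549, and on log2(TPM + 1) 3419 of 10816 were higher. On that scale the median over all genes was -0.48, and PGD, ME1, TKT, IDH1 and TALDO1 still passed, with log2 folds of 2.78, 2.76, 1.63, 0.997 and 0.68, each 0.48 larger when taken relative to that median. RPE did not pass there (log2 0.18, limma adjusted p = 0.255). With TPM rescaled over protein-coding genes, a choice made after the share of non-coding RNA was seen, RPE stood at 0.86 (limma adjusted p = 0.000954).

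Because TPM is per length, it also orders the members within a line. In H23 the order was TKT at 337 ± 51.3 TPM, TALDO1 at 191 ± 16.7, PGD at 86.1 ± 13.4, RPIA at 84.3 ± 5.003, IDH1 at 58.7 ± 5.41, PGLS at 54.5 ± 5.76, RPE at 37.2 ± 6.79 and ME1 at 5.32 ± 0.259 (SD, n = 3). PGD and RPIA changed order between the H23 libraries. IDH1 was above PGLS in each of them, by little in replicate 2 (60.0 against 59.1 TPM). In A549 it was TKT at 1035 ± 18.3 TPM, PGD at 591 ± 32.4, TALDO1 at 306 ± 14.4, IDH1 at 118 ± 1.59, RPE at 41.8 ± 1.09, ME1 at 41.8 ± 0.935, PGLS at 34.7 ± 2.63 and RPIA at 9.63 ± 0.659. RPE and ME1 changed order between the A549 libraries. RPIA thus ranked 4 of the 8 tested members in H23 and 8 in A549, and by TPM it stood above 88.9% of tested genes in H23 and above 56.1% in A549. TKT led in both lines.

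Ratios of TPM within a library do not change when all genes of that library are rescaled. The trend with GC content and length was not removed from them, and its removal moved the log2 folds of RPE and PGLS to -0.25 and 0.73. These pairs of enzymes were chosen after their values had been seen. RPIA to RPE, the enzymes that share a substrate, stood at 1.78, 2.84 and 2.37 in H23 and at 0.224, 0.222 and 0.244 in A549, so the isomerase was above the epimerase in every H23 library and below it in every A549 library. PGD to PGLS rose from 1.57 ± 0.109 to 17.1 ± 0.665, and TKT to TALDO1 went from 1.75 ± 0.121 to 3.39 ± 0.0973 (SD, n = 3). ME1 to IDH1 was 0.0913 ± 0.0101 in H23 and 0.355 ± 0.00313 in A549. None of these ratios overlapped between the lines. As the pairs were picked for their values, no test is given.

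The cytosolic forms also took a larger part of their enzyme families in A549. ME1 made up 15.1, 13.96 and 15.4% of the summed TPM of ME1, ME2 and ME3 in H23 and 56.8, 56.4 and 53.9% in A549. IDH1 made up 50.1, 46.4 and 47.0% of IDH1 plus IDH2 in H23 and 80.6, 80.5 and 79.3% in A549 (n = 3 per line). Neither share overlapped between the lines, for which the exact two-sided permutation test gives p = 0.1, the smallest that 3 libraries against 3 allow. The mitochondrial ME3 was itself higher in A549 (log2 1.98 ± 0.10, edgeR adjusted p = 3.29e-06). The mitochondrial IDH2 was lower, at 59.6 ± 7.28 CPM in H23 and 40.7 ± 0.338 in A549 (log2 -0.55 ± 0.11, edgeR adjusted p = 0.00279), but without the GC content and length trend its log2 fold was -0.09 (edgeR adjusted p = 0.191). ME2, mitochondrial and mainly NAD-linked, did not pass (log2 0.04 ± 0.08) and turned to -0.52 without that trend (edgeR adjusted p = 0.000193).

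**Figure D3:**
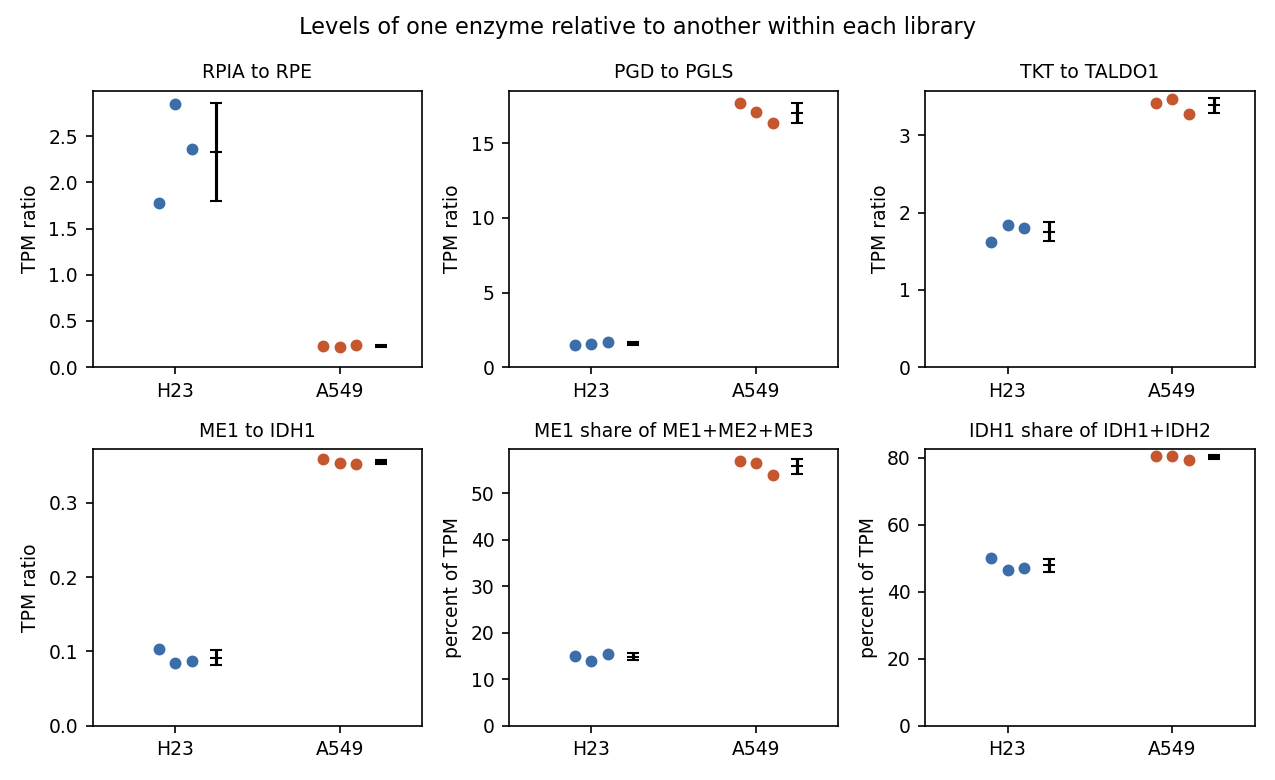
TPM of one enzyme relative to another within each library (4 ratios) and the share of ME1 and of IDH1 in their families (percent of TPM), for the 3 libraries of each line, with mean ± SD beside the points. RPIA to RPE is above 1 in each H23 library and at most 0.244 in each A549 library, and the other 5 measures are higher in A549.

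Single transcripts carried most members. ME1, PGLS, RPIA and TALDO1 have 1 transcript in the files. The leading transcripts of PGD, TKT and IDH1 were the same in all 6 libraries and held 98.6 ± 0.265%, 95.01 ± 1.22% and 94.9 ± 0.936% of their gene in H23 and 98.1 ± 0.231%, 96.8 ± 0.234% and 98.0 ± 0.425% in A549. Transcript usage passed for these 3 genes (edgeR diffSpliceDGE adjusted p = 0.00252, 0.0412 and 0.00362), as for 25.8% of 7539 tested genes. Which transcript carried each result was not tested. The TKT result was lost without any 1 of 5 libraries, with adjusted p from 0.0534 to 0.215 (without H23 replicate 2 it was 0.0258), and that of PGD with only transcripts of at least 1 TPM in 3 libraries (0.397). RPE has 14 transcripts. NM_199229 held 74.2 ± 3.09% in H23 and 87.8 ± 2.37% in A549, and NM_001318926 held 12.8 ± 0.802% and 3.54 ± 1.27%. The usage test of RPE did not pass (adjusted p = 0.295) and passed with the TPM filter (0.0119).

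The counts of PGD, RPIA, TALDO1, TKT, ME1 and IDH1 were whole numbers in all 6 libraries, within 0.005. No division of reads between them and another gene shows in RSEM's estimates. Those of PGLS and RPE were not whole in any library. RPEL1, a close copy of RPE, had 0 to 7.01 counts per library.

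Genes that take ribose phosphate onward, or feed sugars into the pathway from the side, were split. Of 14 such genes 11 were tested by edgeR, and 3 passed as higher in A549, 3 as lower and 5 not at all, with a median log2 fold of 0.11. Over all tested genes 37.6% passed as higher in A549 and 39.6% as lower. The split moved with the scaling, to 7 lower on log2(TPM + 1), where 3419 of the 10816 genes called were higher in A549. It moved to 6 higher with the GC content and length trend removed, where 6172 of the 12041 genes called were higher. PRPS1 and PRPS2, the synthetases that turn ribose phosphate into the precursor of nucleotides, passed as higher (log2 2.61 ± 0.08 and 1.17 ± 0.14, edgeR adjusted p = 5.89e-07 and 0.000258). PRPS1 was at 17.8, 19.0 and 17.6 CPM in H23 and 113, 111 and 109 CPM in A549. PRPSAP1, which encodes a partner protein that restrains these synthetases, was lower in A549 (log2 -0.91 ± 0.08). The gluconate kinase gene IDNK was higher in A549 (log2 1.75 ± 0.18). TIGAR, a phosphatase that diverts glucose carbon toward the pathway, and PGM2, a mutase for pentose phosphates, were lower (log2 -1.16 ± 0.12 and -0.46 ± 0.08). H6PD, which starts the pathway inside the endoplasmic reticulum, was at 39.1 CPM in H23 replicate 1, 71.2 in both other H23 libraries and 41.2 to 42.2 in A549. H6PD did not pass (log2 -0.54 ± 0.23, edgeR adjusted p = 0.0623) and passed without H23 replicate 1 (log2 -0.78, edgeR adjusted p = 1.32e-13). Without that library 4 genes of this list passed as higher in A549 and 5 as lower, where 88.6% of all tested genes passed.

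Other NADPH sources, their relatives in the malic enzyme and folate families and the enzymes that make NADP went both ways. All 12 genes of this list were tested, and 4 passed as higher in A549, 7 as lower and ME2 not at all, with a median log2 fold of -0.40, where 37.6% and 39.6% of all tested genes did. Those higher in A549 numbered 2 on log2(TPM + 1) and with the GC content and length trend removed. Under these settings 3419 of 10816 and 6172 of 12041 called genes were higher in A549. NNT, the inner-membrane transhydrogenase that makes mitochondrial NADPH, was at 0.898, 0.802 and 0.824 CPM in H23 and 76.1, 77.1 and 78.3 in the other line (log2 6.51 ± 0.11, edgeR adjusted p = 9.38e-08). NNT was low but above the 3-count floor in every H23 library. The folate enzyme genes ALDH1L1 and MTHFD1L passed as lower (log2 -5.40 ± 0.31 and -2.15 ± 0.11, edgeR adjusted p = 7.20e-06 and 4.45e-06), with ALDH1L1 at 9.22, 13.5 and 12.9 CPM in the H23 libraries and only 0.416, 0.160 and 0.259 in those of A549. ALDH1L1 makes cytosolic NADPH, and MTHFD1L, a mitochondrial formate producer, makes none itself. NADK, the cytosolic kinase that makes NADP from NAD, was also lower (log2 -0.96 ± 0.12). MTHFD2L, a mitochondrial folate dehydrogenase, was higher in A549 (log2 0.86 ± 0.15), a call that was lost at -0.03 with the GC content and length trend removed.

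Among the genes that supply ME1 and IDH1 with substrate, 3 of 7 passed as higher in A549, 2 as lower and 2 not at all, with a median log2 fold of 0.29, against the same shares of all genes, 37.6% and 39.6%. With the GC content and length trend removed 5 were higher in A549, as were 6172 of the 12041 genes called. ACO1, the cytosolic aconitase that makes isocitrate, and ACLY, which splits citrate in the cytosol, passed as higher (log2 1.81 ± 0.09 and 1.64 ± 0.13, edgeR adjusted p = 3.53e-06 and 3.18e-05). MDH1 and GOT1, of the malate and aspartate shuttle, were lower (log2 -0.76 ± 0.09 and -0.86 ± 0.08). MDH1 makes or uses malate and was at 468, 400 and 394 CPM in H23 and 251, 247 and 246 CPM in A549. The dicarboxylate carrier SLC25A10 was higher in A549 (log2 0.81 ± 0.17) and did not pass on log2(TPM + 1) (limma adjusted p = 0.228).

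Of 16 enzymes that use NADPH, 11 passed as higher in A549, 3 as lower and 2 not at all, with a median log2 fold of 0.65, where 37.6% and 39.6% of all tested genes did. On log2(TPM + 1) 5 passed as higher and 5 as lower, where 3419 of the 10816 genes called were higher in A549. Without H23 replicate 1 the numbers were 11 and 5, where 88.6% of all tested genes passed. GSR, glutathione reductase, was at 88.4, 82.1 and 90.1 CPM in H23 and 500, 486 and 486 in the A549 libraries (log2 2.50 ± 0.08, edgeR adjusted p = 5.84e-07). BLVRB, a biliverdin and flavin reductase, and SQLE, the squalene epoxidase of sterol synthesis, were higher too (log2 1.70 ± 0.08 and 1.60 ± 0.09). SRD5A3, a polyprenol reductase, and KDSR, a reductase of sphingolipid synthesis, were lower in A549 (log2 -2.39 ± 0.14 and -0.86 ± 0.13). FDXR, the reductase that passes electrons from NADPH to mitochondrial ferredoxin, was at 74.1, 74.6 and 76.9 CPM in H23 and 61.2, 60.3 and 59.9 in A549 (log2 -0.31 ± 0.07, edgeR adjusted p = 0.0057), and turned to 0.19 without the GC content and length trend (edgeR adjusted p = 0.0791).

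**Figure D4:**
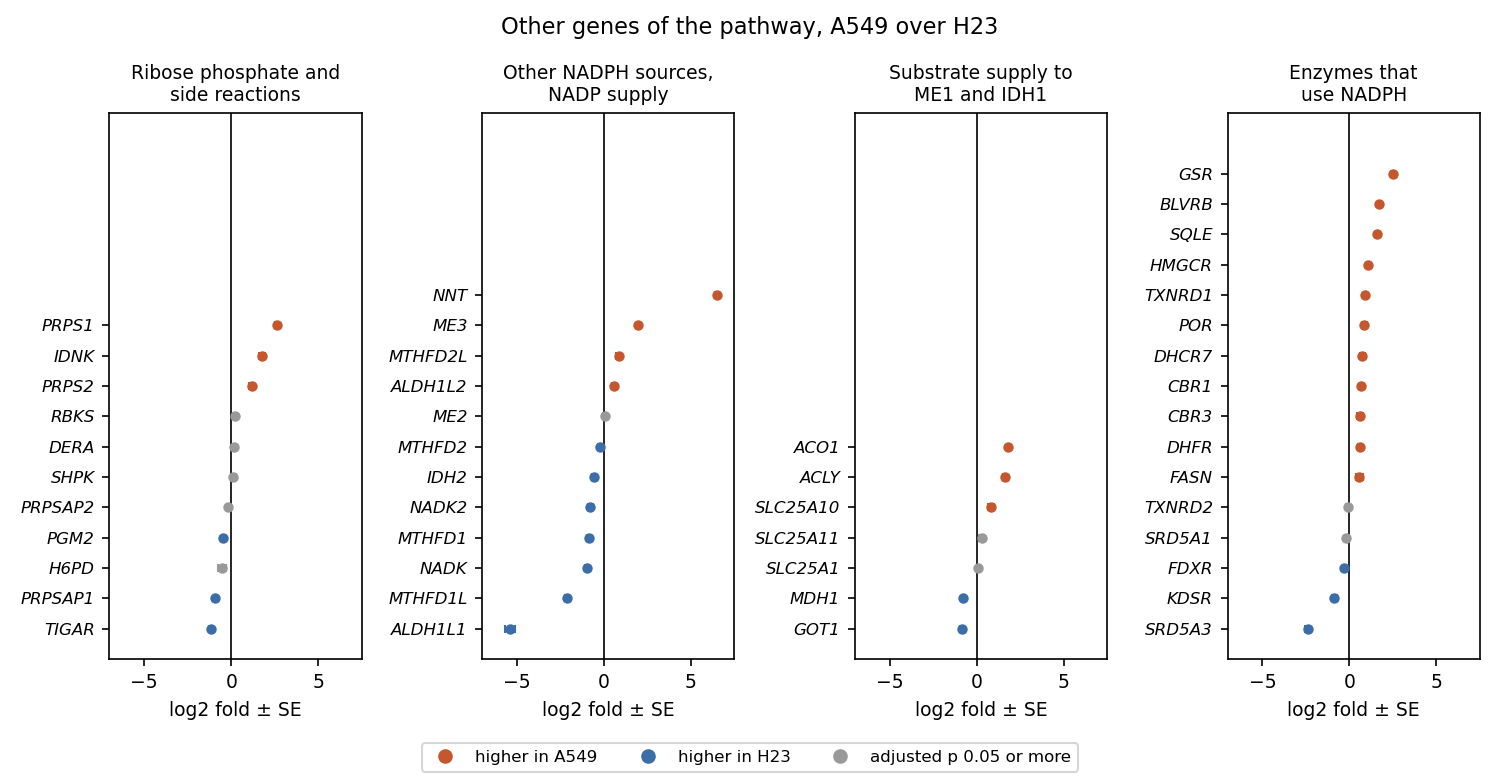
Log2 fold, A549 over H23, ± SE from edgeR for the tested genes of the 4 lists around the pathway; orange is higher in A549, blue higher in H23 and grey did not pass. NNT at 6.51 and ALDH1L1 at -5.40 lie farthest from 0.

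For each tested member but PGD, the gene with the nearest profile of log2(TPM + 1) over the 6 libraries was picked, by root mean square difference. It was PHLDA3 for ME1 (0.157), DBNDD2 for RPIA (0.133), ITGB1 for TKT (0.286), EIF4B for TALDO1 (0.120), ALDH3A2 for IDH1 (0.0942), NUP35 for RPE (0.123) and SDCCAG3 for PGLS (0.0531). DBNDD2, like RPIA, stood at 90.9 TPM in H23 and 8.98 TPM in A549. The profiles share their libraries, and most of their variation is the difference between the lines.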

How the data were processed

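RNA from 3 cultures each of H23 and A549 was sequenced from stranded, ribosomal-RNA-depleted total RNA libraries, per the labels' protocols. Per the submitters' processing notes, STAR 2.6.0c, RSEM 1.3.0 and hg19 were used, and options, annotation release and strand setting are not given in the sources used here. Per the file headers, the authors deposited expected counts (RSEM's estimates for genes and transcripts), TPM (scaled for length and depth) and, in percent, how much of a gene each transcript makes up. Transcript lengths were deposited too. The tables hold no coordinates. Promoters came from RefSeq on GRCh38.p14.

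Expected counts were rounded and tested with edgeR 4.0.16 in R 4.3.3 (filterByExpr, TMM, robust quasi-likelihood F test, Benjamini-Hochberg over 15426 genes, threshold 0.05). Approximate standard errors came from dividing the log2 fold by the root of F, and 95% intervals from these and the fitted degrees of freedom. Usage was tested with diffSpliceDGE. Alternatives used DESeq2 1.42.0, limma 3.58.1 with trend on log2(TPM + 1) or log2(TPM + 0.1) for genes of at least 1 TPM in 3 libraries, other scalings and filters, and a GC content and length trend per library (mgcv), which covered 96.8% of tested genes. Tests were checked on simulated counts that held no GC content or length trend and no outlying library, so the check does not cover these. The text names the 9 members, up to 3 genes per direction with the largest called log2 fold from each of 4 lists, paralogs of members, and the gene nearest each member; the one nearest PGD and 1 listed enzyme that uses NADPH are not reported here. Members and lists were chosen with earlier results of these data known. P-values measure the spread between cultures of 1 line each.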

Additional observations from a re-analysis of the deposited data

How the results depend on the processing

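PGD, ME1, TKT, IDH1, TALDO1 and RPIA kept their direction and passed in all 19 alternatives, with log2 folds of 2.78 to 3.91, 2.76 to 3.58, 1.63 to 2.77, 0.997 to 1.69, 0.68 to 1.89 and -3.12 to -2.26. RPE passed in 17, as lower in A549 in 2 of these. PGLS passed as lower in A549 with upper quartile factors (-0.24) and on log2(TPM + 1) and log2(TPM + 0.1) (-0.63 and -0.65), and without single replicates it ran from -0.16 to -0.062. It turned to 0.73 with the GC content and length trend removed and to 0.049 on TPM rescaled over protein-coding genes. RPE fell short on log2(TPM + 1) and log2(TPM + 0.1) (0.18 in both) and turned to -0.25 with the trend removed. Members called higher in H23 numbered 2 in place of 1 under upper quartile factors, both TPM scales, the trend removed with or without the block, and without H23 replicate 1, and 1 to 2 without single replicates. All genes called numbered 11037 to 13774 without single replicates.

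Libraries of the same replicate number shared only the number, with correlations of their deviations of -0.0389 to 0.0544, and not every library correlated best with its own number. The replicate block alone changed no member's gene-level call. With the block and the trend removed, PGLS stood at 0.73 and RPE at -0.24, and usage under the replicate block gave adjusted p of 0.132 for TKT and 0.0501 for IDH1. The block gave 11691 genes called. Usage of PGD and RPE moved to 0.397 and 0.0119 with the TPM filter, and that of TKT ran from 0.0258 to 0.215 without single replicates. The cause of these changes was not tested.

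On expected counts in place of TPM, which drops the length scaling, the A549 minus H23 differences were 43.1 and 27.4 percentage points for the shares of ME1 and IDH1, against 40.9 and 32.3, and -1.13, 39.2, 3.09 and 0.398 for the ratios RPIA to RPE, PGD to PGLS, TKT to TALDO1 and ME1 to IDH1, against -2.10, 15.5, 1.64 and 0.264.

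Among listed genes, the trend removed, without and with the block, turned ME2 to -0.52 and -0.52, MTHFD2L to -0.027 and -0.019, ALDH1L2 to -0.10 and -0.091, TXNRD2 to 0.51 and 0.51, and FDXR to 0.19 and 0.20. Upper quartile factors turned SHPK, ME2 and SLC25A1 to -0.015, -0.089 and -0.028. On log2(TPM + 1) and log2(TPM + 0.1) SHPK turned to -0.40 and -0.42, RBKS to -0.34 and -0.38, DERA to -0.36 and -0.37, ME2 to -0.49 and -0.51, SLC25A1 to -0.47 and -0.47, and SLC25A11 to -0.24 and -0.24. TPM rescaled over protein-coding genes turned TXNRD2 to 0.090 and SRD5A1 to 0.010, and SHPK ran from -0.034 (without H23 replicate 1) to 0.21 without single replicates. Counts of the side-reaction list higher in H23 moved from 3 to 7 on log2(TPM + 1), and higher in A549 from 3 to 6 with the trend removed. Depth limits the text at TKTL1, TKTL2 and RPEL1.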
